A study of Mus musculus with 26 samples.

Results

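The comparison set conventional CD4 T cells (Tconv, CD4+Foxp3-) from the central nervous system (CNS) against Tconv cells from the draining lymph node (dLN) of control mice with experimental autoimmune encephalomyelitis (EAE), an induced model of multiple sclerosis. It comprised the 7 libraries labelled as control Tconv among 26 in the series, 4 from the CNS and 3 from the dLN. All mice were C57BL/6, had active EAE at day 14 and received tamoxifen from day 7 to day 14, and the controls carried Foxp3Cre-ERT2, a tamoxifen-activated Cre recombinase driven by Foxp3 and so aimed at regulatory T (Treg) cells. For the tests of whether the tissue difference differed between populations, Treg cells (CD4+Foxp3+) of control mice gave 3 CNS and 3 dLN libraries. Tconv cells of icKO mice gave 4 CNS and 2 dLN libraries. The icKO mice were Foxp3Cre-ERT2 x Tnfrsf1bFlox/Flox, in which the TNF receptor TNFR2 is deleted in cells that express Foxp3, so their Tconv cells are not the cells the Cre targets. Replicate 3 of the icKO dLN Tconv libraries, which stood apart in earlier results of these data, was left out. Polyadenylated RNA was sequenced and 13040377 to 18527624 reads per library were assigned to 24848 listed genes.

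In EAE, T cells primed in draining nodes against myelin enter the CNS, where they meet antigen again on local and infiltrating myeloid cells. Naive T cells recirculate through nodes by means of the chemokine receptor CCR7 and adhesion receptors, while effector T cells leave and are guided into inflamed tissue by receptors such as CXCR3, CCR2 and CXCR6. T helper 1 (Th1) cells use the factor T-bet and make interferon gamma, Th17 cells make interleukin-17, and T follicular helper (Tfh) cells stay in the node, where CXCR5 leads them to B cells. Sorted Tconv cells are mixtures of these states, and in bulk RNA fewer cells of a type and less RNA per cell cannot be told apart.

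The 7 libraries fitted the labelled T cell sort. The co-receptor gene Cd4 had 1473, 1222, 1260.1 and 1284 CPM (read counts scaled by library size to a common total) in CNS replicates 1 to 4, and 988, 1073 and 960.1 CPM in dLN replicates 1 to 3. Cd3e, a chain of the T cell receptor complex, averaged 1265 ± 121 CPM in the CNS (SD, n = 4) and 1090.1 ± 35.3 CPM in the dLN (SD, n = 3). Foxp3, the Treg factor, was at most 1.53 CPM in any of the 7 libraries, averaging 0.879 ± 0.481 CPM in the CNS and 1.02 ± 0.117 CPM in the dLN, and its direction turned with the libraries used (log2 fold change -0.21 with 7 libraries and 0.04 without CNS replicate 4). Cd8a stayed at or under 15.4 CPM. CNS and dLN libraries each carried low levels of myeloid transcripts. The summed level of 20 monocyte and macrophage markers was 371, 525, 925 and 1472 CPM in CNS replicates 1 to 4, and 564, 981 and 1113 CPM in the dLN, with Adgre1 (F4/80) at 0 in CNS replicates 1 to 3. The sum of 12 microglia markers was 174, 229, 443 and 492 CPM in the CNS, and 151, 206 and 225 CPM in the dLN. Tmem119, which defines microglia in the CNS, stood at 0, 0.335, 7.99 and 8.10 CPM in CNS replicates 1 to 4 and at 0 in all 3 dLN libraries. CNS replicates 3 and 4 thus held most of the microglia signal.

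CNS replicate 4 lay nearer to the dLN libraries than to its own group. Its median rank correlation over all genes was 0.964 with the other CNS libraries, the same as for CNS replicate 2, and 0.974 with the dLN libraries, and its closest library of the series was dLN replicate 3 of the same comparison (0.977). CNS replicate 1 stood apart in another way, with a median correlation of 0.951 with the other CNS libraries and 0.929 with the dLN libraries. It was above all other 6 libraries in 2783 genes and below them in 3584, against 1281 and 976 for replicate 4. Its limma voom quality weight was the lowest of the 7, at 0.255, against 0.589 for replicate 4. Without CNS replicate 1, 269 genes were called higher and 59 lower. Genes with a count above 0 numbered 11089, 12441, 12477 and 13125 in CNS replicates 1 to 4. In dLN replicates 1 to 3 they numbered 12978, 13206 and 13139. The part of gene detection in the likeness of CNS replicate 4 to the dLN was not tested. To place each library, genes were called without it, and its level was set on a scale on which 0 is the dLN mean and 1 the CNS mean of the other libraries, in log2(CPM + 1). CNS replicates 1, 2 and 3 had median positions of 1.15, 1.13 and 0.92 over the 328, 77 and 106 genes called in each case. CNS replicate 4 had a median position of 0.29 over 1601 genes, with 0.38 for genes higher in the CNS and 0.21 for genes lower there. The dLN libraries lay at 0.20, -0.09 and 0.02 over 67, 48 and 33 genes. The gene sets thus differ in size and membership, and the CNS mean includes replicate 4 on every scale but its own, so the positions are a description. Of 889 genes called higher in the CNS without it, replicate 4 was within or below the dLN range in 217 (24.4%), and at least at the lowest of the other CNS libraries in 136 (15.3%). Of 712 genes called lower, the same counts were 317 (44.5%) and 24 (3.37%). The deposited tables of CNS replicates 3 and 4 carry a name prefix that the other tables use for icKO mice, against their control label. The labels were followed, and both libraries are called by them throughout.

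**Figure D1:**
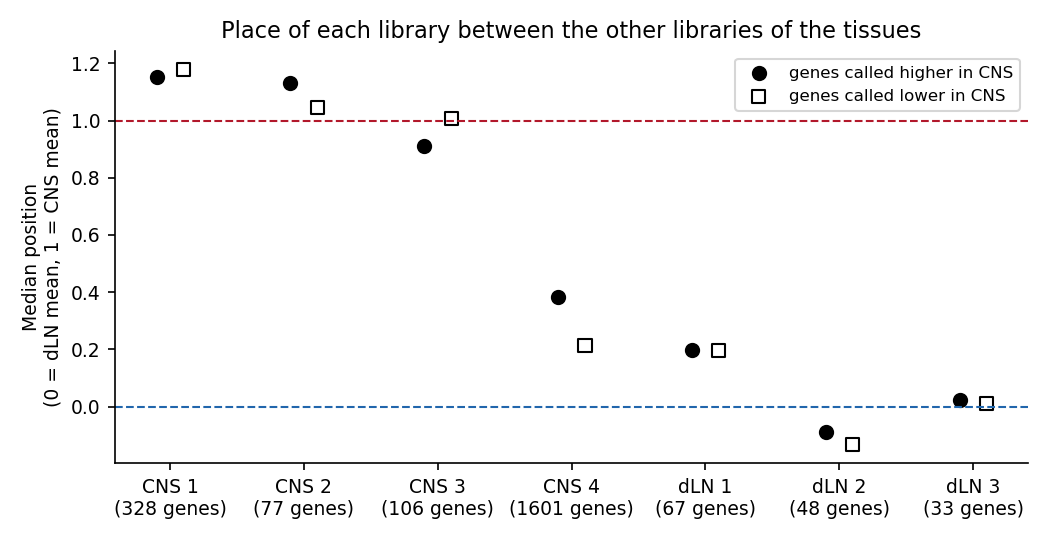
Median position of each of the 7 control Tconv libraries between the dLN mean (0) and the CNS mean (1) of the other libraries, over the genes called without that library (33 to 1601, given under each), with genes higher in the CNS as filled circles and genes lower as open squares. CNS replicates 1 to 3 lie between 0.91 and 1.18, whereas CNS replicate 4 lies at 0.38 and 0.21, next to dLN replicate 1 at 0.20.

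With all 7 libraries, Tconv cells from the CNS differed from Tconv cells of the dLN in 285 of 11442 genes tested (2.49%, edgeR quasi-likelihood test, Benjamini-Hochberg adjusted p under 0.05). Of these, 239 were higher in the CNS (2.09%) and 46 lower (0.402%), with median log2 fold changes of 1.53 and -1.49. Over all genes tested, 2329 passed an unadjusted p under 0.05, and the groups did not overlap in 1288 genes higher in the CNS (11.3%) and 1178 lower (10.3%). Leaving out CNS replicate 4 raised the count to 1601 of 11304 genes (14.2%), 889 higher (7.86%) and 712 lower (6.3%), and without it the groups did not overlap in 19.7% of genes tested on the higher side and 20.2% on the lower side. All 285 calls were among the 1601, in the same direction, and make up 17.8% of them. Over the 1601 genes the median absolute log2 fold change was 0.93 without replicate 4 and 0.75 with it, and each kept its direction with 7 libraries. Both fits share all libraries but replicate 4, so agreement in direction was largely fixed in advance and is a description. The count also moved with other choices. With replicate 4 kept, DESeq2 called 756 genes higher and 371 lower and limma voom 734 and 562, whereas edgeR called 29 and 4 without dLN replicate 3 and 69 and 8 without CNS replicate 2.

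**Figure D2:**
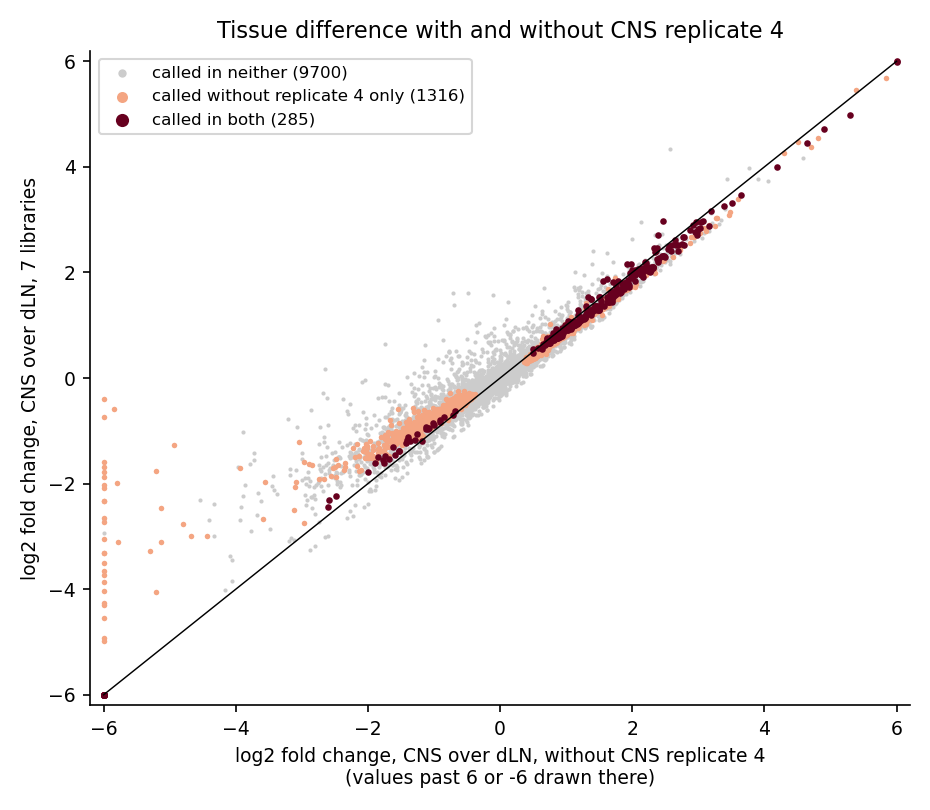
Log2 fold change of CNS over dLN control Tconv cells for each gene, with 7 libraries against the value without CNS replicate 4. The 285 genes called in both fits and the 1316 called only without replicate 4 lie along the same trend on both sides of 0. Both fits share all libraries but replicate 4, so a common trend was largely fixed in advance.

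The 12 largest rises included genes for transcription factors (Jun and Hic1), secreted proteins, surface receptors and Socs2, an inhibitor of cytokine signalling. They were taken from genes whose groups did not overlap. Tppp3, a microtubule-binding protein gene, had 27.0, 17.1, 10.7 and 4.31 CPM in CNS replicates 1 to 4, against 0.510, 0.343 and 0.526 CPM in the dLN (log2 fold change 4.98 ± 0.72 SE, edgeR adjusted p = 0.011). Metrnl, which encodes the secreted factor meteorin-like, had 113, 52.9, 44.0 and 37.0 CPM in the CNS, against 3.51, 1.23 and 3.68 CPM in the dLN (4.46 ± 0.54, adjusted p = 0.0057). Replicate 4 was the lowest CNS library for both genes and still stood far above the dLN. Entpd1, the CD39 enzyme that breaks down extracellular ATP, had 39.8, 46.5, 29.2 and 25.7 CPM in the CNS, against 5.17, 2.06 and 3.76 CPM in the dLN (3.26 ± 0.38, adjusted p = 0.0056). Lilr4b, a receptor gene with a close paralogue, Lilrb4a, that could share its reads, rose by 2.98 ± 0.39 (adjusted p = 0.0067). Of the 68 named genes called with 7 libraries, 23 were called in all 7 fits that each left out 1 library. Leaving out CNS replicates 1, 2, 3 and 4 lost 2, 29, 25 and 0 of these 68 calls, and leaving out dLN replicates 1, 2 and 3 lost 34, 40 and 43. Metrnl and Entpd1 were among the 23, Tppp3 was lost without dLN replicate 1, 2 or 3 (adjusted p up to 0.087), and Lilr4b without dLN replicate 3 (0.067).

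**Figure D3:**
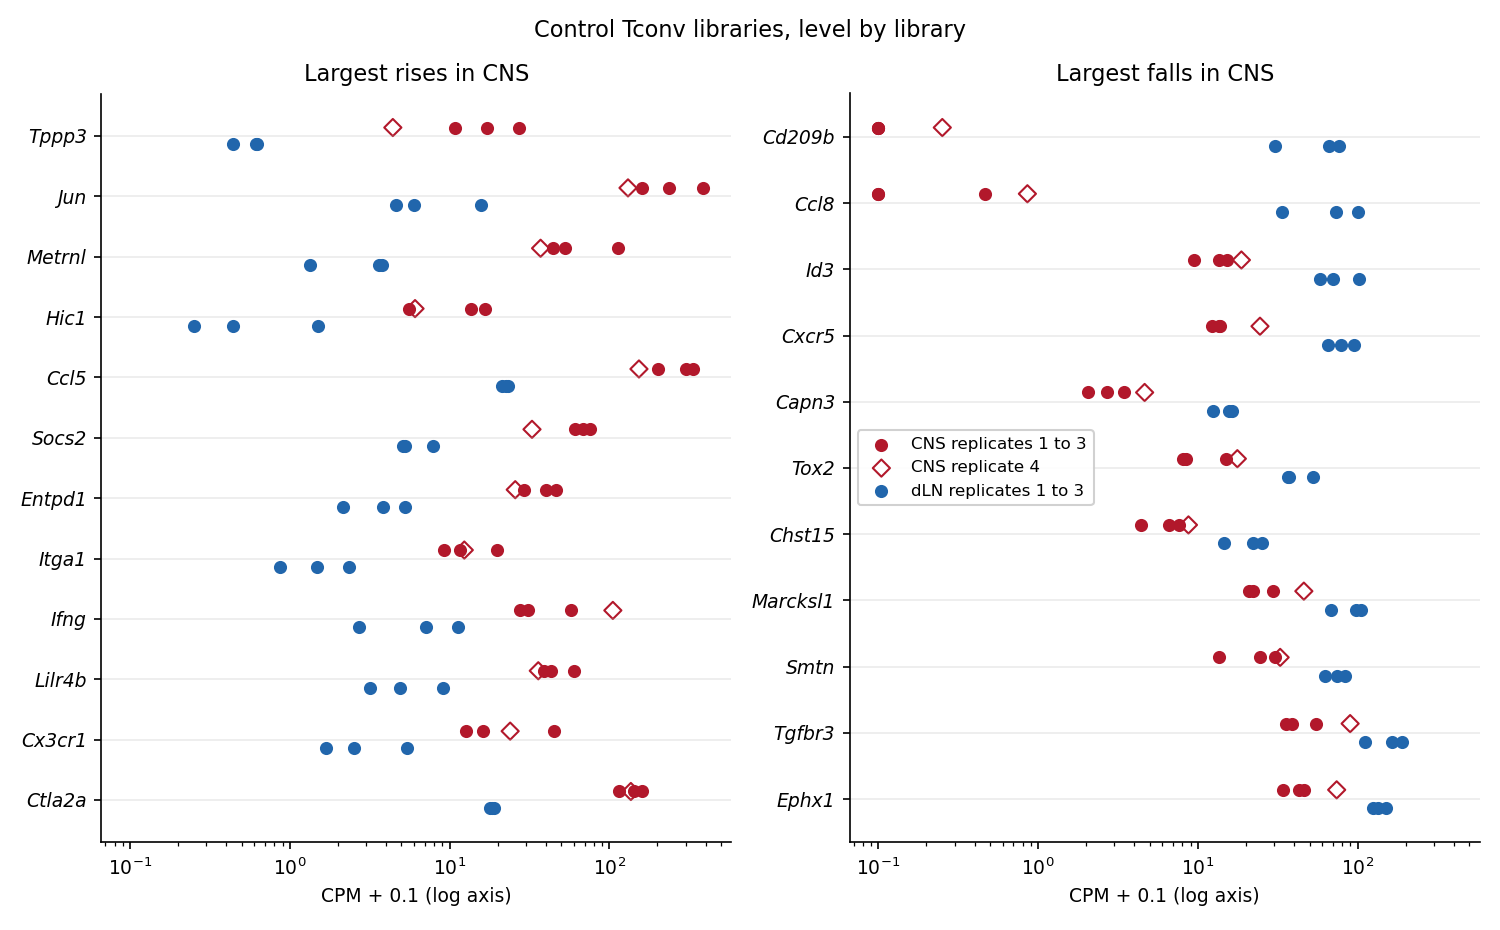
Level of the 12 largest rises and 11 of the 12 largest falls in each library, as CPM + 0.1 on a log axis, with CNS replicates 1 to 3 as filled red circles, CNS replicate 4 as open red diamonds and dLN libraries as blue circles. The diamonds lie on the dLN side of the CNS libraries for most genes but not for Ifng, where CNS replicate 4 is the highest at 105 CPM.

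AP-1 genes were among the most consistently raised. AP-1 factors are dimers of Jun and Fos proteins that are induced within minutes of stimulation. Jun had 384, 237, 159.9 and 131 CPM in CNS replicates 1 to 4, against 5.87, 15.6 and 4.51 CPM in the dLN (log2 fold change 4.72 ± 0.56 SE, edgeR adjusted p = 0.0056). Fos had 119.7, 129, 134 and 95.1 CPM in the CNS, against 18.2, 13.7 and 14.4 CPM in the dLN (2.95 ± 0.19, adjusted p = 0.00021). The lowest CNS library was several-fold above the highest dLN library for both. Junb rose by 1.78 ± 0.14 (adjusted p = 0.00081), and Dusp1, a phosphatase that limits MAP kinase signalling, by 1.69 ± 0.19 (adjusted p = 0.0052). Jun, Fos, Junb and Dusp1 were called in every fit that left out 1 library. Of 22 tested genes on the immediate early list, 6 rose and none fell in edgeR's test with 7 libraries (3 lower at an unadjusted p under 0.05, 1 lower with DESeq2 and 3 with limma voom). The list's median log2 fold change was 0.50, against -0.02 over all genes. Without CNS replicate 4, 7 rose and 4 fell, and those that fell were Egr1, Egr2, Egr3 and Dusp2. List counts here and below are to be read beside the shares over all genes tested. These were 2.09% higher and 0.402% lower with 7 libraries, and 7.86% higher and 6.3% lower without CNS replicate 4. The Egr genes encode zinc-finger factors induced by T cell receptor signalling. Egr2 had 0.370, 9.10, 14.1 and 24.97 CPM in the CNS, against 72.9, 69.1 and 64.3 CPM in the dLN, which did not overlap. With edgeR it was called lower without replicate 4 (-3.12 ± 0.81, adjusted p = 0.04) but not with 7 libraries (0.13). The isolation of cells from CNS and from node cannot be told apart from the tissue itself.

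Because AP-1 genes rose, the promoters of the named genes that rose were searched for the AP-1 motif TGANTCA on both strands, in RefSeq promoters of build GRCm38.p6 that run from 250 bases before to 50 bases after the gene start. A promoter was found for 39 of 52 such genes, and 3 held the motif. They are shown because they carry the motif, 5′ to 3′ on the gene's strand, with the motif in capitals. The Ctla2a promoter lies at chr13:60936517-60936816 on the minus strand (1 of 2 listed for the gene, the one with the lower coordinates), that of Anxa2 at chr9:69453433-69453732 on the plus strand and that of Zyx at chr6:42349578-42349877 on the plus strand.
Ctla2a: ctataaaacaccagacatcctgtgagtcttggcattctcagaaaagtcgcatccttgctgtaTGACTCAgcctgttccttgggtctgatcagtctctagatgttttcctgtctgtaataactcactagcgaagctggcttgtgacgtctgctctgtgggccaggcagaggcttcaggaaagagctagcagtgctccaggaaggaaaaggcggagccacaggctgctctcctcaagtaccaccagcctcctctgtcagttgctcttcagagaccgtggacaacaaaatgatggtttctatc
Anxa2: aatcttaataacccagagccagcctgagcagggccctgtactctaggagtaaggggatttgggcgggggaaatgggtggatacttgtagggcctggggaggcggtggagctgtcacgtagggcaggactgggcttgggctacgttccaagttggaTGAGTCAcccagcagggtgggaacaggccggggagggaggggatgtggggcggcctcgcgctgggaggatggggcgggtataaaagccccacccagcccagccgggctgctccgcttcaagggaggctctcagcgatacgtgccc
Zyx: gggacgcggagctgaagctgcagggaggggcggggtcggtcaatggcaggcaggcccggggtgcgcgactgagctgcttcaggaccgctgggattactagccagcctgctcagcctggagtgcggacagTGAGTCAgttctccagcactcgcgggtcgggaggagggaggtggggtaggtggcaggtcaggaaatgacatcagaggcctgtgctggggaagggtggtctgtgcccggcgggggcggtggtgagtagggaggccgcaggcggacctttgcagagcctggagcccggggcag
Over all tested genes with a promoter in the table, 406 of 9053 held the motif (4.48%). Among genes higher in the CNS it was 22 of 185 (11.9%), and among genes lower in the CNS 0 of 40. Without CNS replicate 4 the shares were 51 of 691 higher genes (7.38%) and 24 of 564 lower genes (4.26%). For comparison, GGGCGG was in 53.5% of the promoters of higher genes and 64.6% of all, ACGTG in 24.3% and 26.3%, and TGACGT in 11.4% and 12.5%. None of these motifs contains another, though TGACGTG holds both ACGTG and TGACGT. A match is a run of letters, and binding was not measured.

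Ctla2a, which encodes an inhibitor of cathepsin-type proteases, was the most evenly raised gene of the 12. It had 160.3, 142, 114 and 136 CPM in CNS replicates 1 to 4, against 17.9, 18.5 and 18.9 CPM in the dLN (log2 fold change 2.91 ± 0.17 SE, edgeR adjusted p = 0.00013). CNS replicate 4 was within the range of the other CNS libraries, and the value without it was the same. The paralogue Ctla2b could share its reads.

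Several genes of migration into inflamed tissue rose. Of 12 tested inflammatory chemokine receptors, 5 rose and none fell (0 lower also at an unadjusted p under 0.05, with DESeq2 and with limma voom), with a median log2 fold change of 1.76 with or without CNS replicate 4. Cxcr6, the receptor for CXCL16, had 1587, 1658, 1099.7 and 860.0 CPM in CNS replicates 1 to 4, against 304, 218 and 267 CPM in the dLN (2.31 ± 0.25 SE, edgeR adjusted p = 0.0044). Cxcr3, whose ligands are induced by interferon gamma, had 837, 552, 612 and 305 CPM in the CNS, against 109, 83.7 and 60.7 CPM in the dLN (2.77 ± 0.34, adjusted p = 0.006). Ccr2, the receptor for CCL2, had 330.4, 362, 460.1 and 186 CPM in the CNS, against 104, 74.1 and 67.2 CPM in the dLN (2.03 ± 0.30, adjusted p = 0.012). In all 3 receptors replicate 4 was the lowest CNS library and remained above every dLN library. Cx3cr1 rose by 2.96 ± 0.58 (adjusted p = 0.035) to 12.5, 16.1, 44.7 and 23.8 CPM in the CNS, against 2.42, 5.35 and 1.58 CPM in the dLN. Microglia express Cx3cr1, the microglia sums given above were also higher in CNS replicates 3 and 4, and their part in the result was not tested. Adhesion genes called higher included Itga1, Selplg and Cd44. Itga1, the collagen-binding integrin chain CD49a, had 9.09, 11.4, 19.8 and 12.3 CPM in the CNS, against 0.766, 1.37 and 2.25 CPM in the dLN (3.16 ± 0.52, adjusted p = 0.018). Selplg, the ligand for P-selectin on activated vessels, rose by 1.05 ± 0.19 (adjusted p = 0.028) and Cd44 by 0.78 ± 0.12 (adjusted p = 0.015). With edgeR, Itgb7 was called higher without replicate 4 (0.92 ± 0.10, adjusted p = 0.0017) but not with 7 libraries (0.063). It was called in 8 of 17 alternative fits. Cxcr6 was called in every fit that left out 1 library. Cxcr3 was lost without dLN replicate 3 (0.053), Ccr2 without dLN replicate 2 or 3 (up to 0.091), and Cx3cr1, Itga1, Selplg and Cd44 without CNS replicate 2 or 3 or any dLN library (0.17, 0.12, 0.15 and 0.11 at most).

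The Th1 list was the most raised of the helper programmes by count. The lists share members, so their counts are not separate results. Nkg7, Klrc1 and Fasl of the Th1 list are also on the cytotoxic list. Cxcr3 is also on the chemokine receptor list and Ifng on the helper cytokine list. Of its 18 tested genes, 11 rose and none fell (0 lower at an unadjusted p under 0.05, with DESeq2 and with limma voom), with a median log2 fold change of 1.65, and 13 rose without CNS replicate 4. Tbx21, which encodes T-bet, had 176, 163, 167 and 71.0 CPM in CNS replicates 1 to 4, against 44.4, 37.0 and 20.4 CPM in the dLN (2.09 ± 0.36 SE, edgeR adjusted p = 0.025). Il12rb2, the inducible chain of the interleukin-12 receptor, had 42.5, 58.4, 39.2 and 42.1 CPM in the CNS, against 10.9, 8.16 and 3.23 CPM in the dLN (2.61 ± 0.39, adjusted p = 0.013). Its partner Il12rb1 rose by 1.63 ± 0.22 (adjusted p = 0.0086), and Stat4, which carries the interleukin-12 signal, by 0.65 ± 0.11 (adjusted p = 0.018). Thus receptor chains and the signal carrier of the interleukin-12 pathway were all higher in the CNS. Nkg7, a granule membrane protein, had 841, 844, 893 and 473 CPM in the CNS, against 118, 104 and 94.9 CPM in the dLN (2.85 ± 0.23, adjusted p = 0.00085). Tbx21 and Stat4 lost their calls without CNS replicate 2 or 3 or any dLN library (0.12 and 0.14 at most), Il12rb1 without dLN replicate 2 or 3 (up to 0.074) and Il12rb2 without CNS replicate 2 or dLN replicate 2 (up to 0.085), whereas Nkg7 was called in every fit that left out 1 library.

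Th17 genes gave a mixed picture. Of 18 tested, 2 rose and 1 fell with 7 libraries, and 7 rose and 3 fell without CNS replicate 4. Over all genes tested, 2.09% rose and 0.402% fell with 7 libraries, and 7.86% and 6.3% without that library. Rora, a nuclear receptor gene also used by other effector T cells, had 266, 243, 224 and 142 CPM in the CNS, against 66.3, 58.8 and 40.03 CPM in the dLN (log2 fold change 1.99 ± 0.25 SE, edgeR adjusted p = 0.0061). It was called in every fit that left out 1 library. Il17a reached 4.07, 3.80, 1.16 and 6.05 CPM in the CNS, against 0, 0 and 0.826 CPM in the dLN, without passing the test (adjusted p = 0.19). The gene that fell, Cd5l, is a macrophage-secreted protein also described in Th17 cells. It had no read in any CNS library, against 3.13, 7.202 and 5.71 CPM in the dLN, and was at least 25.6-fold lower in the CNS (floor of 3 counts per library), though not called without dLN replicate 1, 2 or 3 (adjusted p up to 0.15).

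For several helper cytokine genes CNS replicate 4 was the highest library. It was the highest of all 7 in 13 of 24 tested helper cytokines, against 1281 of all 11442 genes (11.2%). The same held for 11 of 18 monocyte and macrophage markers, 8 of 13 dendritic cell markers and 11 of 24 glycolysis genes. Myeloid cells also express Tnf, the summed monocyte and macrophage markers were 1472 CPM in replicate 4 against 371 to 925 CPM in the other CNS libraries, and their part in the cytokine values was not tested. Tnf had 11.6, 27.9, 15.3 and 84.0 CPM in CNS replicates 1 to 4, against 26.9, 26.8 and 21.2 CPM in the dLN. Csf2, the GM-CSF gene of encephalitogenic T cells, had 3.48, 7.54, 3.49 and 51.1 CPM in the CNS, against 0.447, 0.412 and 1.58 CPM in the dLN. Neither passed with 7 libraries (edgeR adjusted p = 0.7 for Tnf and 0.092 for Csf2), and Tnf had a log2 fold change of 0.48 with replicate 4 and -0.45 without it. Ifng was the only member called with 7 libraries, at 27.4, 57.5, 31.0 and 105 CPM in the CNS, against 11.2, 7.07 and 2.63 CPM in the dLN (2.98 ± 0.61 SE, adjusted p = 0.04). It was also called without replicate 4 (2.47 ± 0.52, adjusted p = 0.019) but not without CNS replicate 2 or 3 or any dLN library (up to 0.2). Il21, a Tfh cytokine, had 0, 4.47, 1.89 and 19.6 CPM in the CNS, against 30.5, 23.7 and 22.5 CPM in the dLN. With edgeR it was called lower without replicate 4 (adjusted p = 0.049) but not with 7 libraries (0.34). CNS replicate 4 was within the dLN range in 0 of the 24 helper cytokines, against 4912 of all genes tested (42.9%).

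Some transcripts linked to cytotoxic cells rose in these CD4 cells. Of 18 tested genes from the CD8 and natural killer cell list, 8 rose and none fell (0 lower at an unadjusted p under 0.05 and with DESeq2, 1 with limma voom), and the list's summed level was 1593, 1540.0, 1669 and 1246 CPM in CNS replicates 1 to 4, against 410, 387 and 413 CPM in the dLN. Ctsw, a cathepsin of killer cells, had 227, 261, 242 and 219.9 CPM in the CNS, against 55.1, 52.5 and 50.3 CPM in the dLN (log2 fold change 2.17 ± 0.13 SE, edgeR adjusted p = 0.00013). Gzmb, the protease granzyme B, had 144, 107, 127 and 80.4 CPM in the CNS, against 33.2, 6.31 and 20.1 CPM in the dLN (2.53 ± 0.48, adjusted p = 0.03). Fasl, the death receptor ligand, rose by 1.66 ± 0.19 (adjusted p = 0.0055) and Klrc1, an inhibitory killer-cell receptor, by 2.16 ± 0.24 (adjusted p = 0.0052). The direction was not shared by every member. Prf1, which encodes perforin, had 9.98, 27.8, 37.3 and 65.5 CPM in the CNS, against 59.7, 73.3 and 75.7 CPM in the dLN, with overlapping groups. With edgeR it was called lower without replicate 4 (-1.47 ± 0.41, adjusted p = 0.048) but not with all libraries. Cd8a and Cd8b1 did not pass the test (adjusted p = 0.58 and 0.63). Ccl5, a chemokine that killer and memory T cells secrete, had 335, 201, 303 and 153 CPM in the CNS, against 22.4, 21.3 and 23.1 CPM in the dLN (3.48 ± 0.29, adjusted p = 0.00085). Ctsw, Fasl, Klrc1 and Ccl5 were called in every fit that left out 1 library, and Gzmb was lost without CNS replicate 2 or 3 or dLN replicate 3 (up to 0.17).

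The S100, annexin and effector list had the highest share of called members, 16 of 19 with 7 libraries and 19 of 19 without CNS replicate 4, none lower in either fit (0 lower at an unadjusted p under 0.05, with DESeq2 and with limma voom). These genes encode calcium-binding, membrane-binding and cytoskeletal proteins that effector and memory T cells express more than naive cells. Their summed level was 13809, 13491, 11776 and 6839 CPM in CNS replicates 1 to 4, against 4666, 4327 and 4451 CPM in the dLN, with no overlap. S100a6 had 699, 802, 744 and 375 CPM in the CNS, against 217, 207 and 189 CPM in the dLN (log2 fold change 1.68 ± 0.24 SE, edgeR adjusted p = 0.011). Anxa2 had 524, 598, 433 and 328 CPM in the CNS, against 179, 151 and 148 CPM in the dLN (1.56 ± 0.21, adjusted p = 0.0075). Replicate 4 was the lowest of the 4 CNS libraries for both and the highest of all 7 in none of the 19 genes. Crip1, a LIM protein, had 1515, 1419, 1362 and 533 CPM in the CNS, against 458, 438 and 433 CPM in the dLN (1.45 ± 0.31, adjusted p = 0.047). Emp3, a membrane protein, was the member for which replicate 4 (254 CPM) lay inside the dLN range (232 to 257 CPM). With edgeR it was called higher without that library (1.07 ± 0.12, adjusted p = 0.0021) but not with 7 libraries. Crip1 was called in 1 of the 7 fits that left out a library, the one without replicate 4 (up to 0.23 in the others). S100a6 lost its call without dLN replicate 1, 2 or 3 (up to 0.09) and Anxa2 without dLN replicate 2 or 3 (up to 0.072). Zyx, a focal adhesion protein of the actin list, rose by 1.31 ± 0.21 (adjusted p = 0.017) and lost its call without CNS replicate 2 or 3 or any dLN library (up to 0.12).

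Some genes induced by interleukin-2 through STAT5 rose in the CNS. Of 14 tested genes on that list, 4 rose and none fell (0 lower at an unadjusted p under 0.05, with DESeq2 and with limma voom), with a list median log2 fold change of 0.23, and 5 rose and 1 fell without CNS replicate 4. Socs2, an inhibitor of cytokine signalling, had 68.3, 76.1, 61.1 and 32.7 CPM in CNS replicates 1 to 4, against 7.78, 5.14 and 5.03 CPM in the dLN (log2 fold change 3.31 ± 0.34 SE, edgeR adjusted p = 0.0033). Cish, a second inhibitor induced by STAT5, had 377, 259, 251 and 239 CPM in the CNS, against 78.2, 61.9 and 59.6 CPM in the dLN (2.08 ± 0.20, adjusted p = 0.0025). Receptor chains moved with the inhibitors. Il2rb had 1232, 1185, 1387 and 827 CPM in the CNS, against 450.1, 331 and 343 CPM in the dLN (1.63 ± 0.20, adjusted p = 0.0057), and Il2ra (CD25) rose by 1.35 ± 0.28 (adjusted p = 0.041). Socs2 and Cish were called in every fit that left out 1 library, Il2rb was lost without dLN replicate 3 (0.056), and Il2ra without CNS replicate 2 or 3 or any dLN library (up to 0.22). Il2 itself had 7.69, 3.30, 3.27 and 18.1 CPM in the CNS, against 9.51, 7.89 and 9.01 CPM in the dLN, with overlapping groups (adjusted p = 0.93).

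Tissue residency and TNF receptor genes rose in part. Of 19 tested residency genes, 9 rose and none fell (1 lower at an unadjusted p under 0.05, 0 with DESeq2 and with limma voom), with a median log2 fold change of 1.195. Bhlhe40, a factor that sustains cytokine output of encephalitogenic T cells, had 508, 531, 389.9 and 379.6 CPM in CNS replicates 1 to 4, against 143, 94.9 and 103 CPM in the dLN (1.99 ± 0.20 SE, edgeR adjusted p = 0.003) and was called in every fit that left out 1 library. Hic1, a transcriptional repressor, had 16.6, 13.5, 5.45 and 5.98 CPM in the CNS, against 1.40, 0.343 and 0.150 CPM in the dLN (4.002 ± 0.84, adjusted p = 0.044). Its call was lost without CNS replicate 2 or 3 or dLN replicate 2 or 3 (up to 0.23). Tnfrsf1b, the gene for TNFR2 that is intact in these mice, had 229.8, 176, 198 and 229 CPM in the CNS, against 125, 132 and 113 CPM in the dLN (0.75 ± 0.14, adjusted p = 0.029), with no overlap. It was not called without CNS replicate 3 or any dLN library (up to 0.17). Tnfrsf18, the costimulatory receptor GITR, had 397, 269.9, 323 and 270.0 CPM in the CNS, against 114, 99.2 and 131 CPM in the dLN (1.46 ± 0.18, adjusted p = 0.0057) and was called in every such fit. These 2 were the only members called higher among 15 tested TNF receptor genes.

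Some of the 46 genes lower in the CNS with 7 libraries were linked to Tfh cells, naive cells or macrophages of lymphoid tissue. Others, among them several of the largest falls, were on none of these lists. Of 14 tested Tfh genes, 3 fell and none rose with 7 libraries (2 higher at an unadjusted p under 0.05, with DESeq2 and with limma voom), with a median log2 fold change of -1.12, and 8 fell and 2 rose without CNS replicate 4. Cxcr5 had 13.5, 13.7, 12.1 and 24.4 CPM in CNS replicates 1 to 4, against 78.0, 94.3 and 65.4 CPM in the dLN (-2.32 ± 0.27 SE, edgeR adjusted p = 0.0055). Tox2, a Tfh-associated factor, had 8.28, 15.0, 7.92 and 17.6 CPM in the CNS, against 52.1, 36.6 and 36.8 CPM in the dLN (-1.78 ± 0.32, adjusted p = 0.028). Btla, an inhibitory receptor of follicular and naive cells, fell by 1.37 on the log2 scale (SE 0.23, adjusted p = 0.021). Bcl6, the defining Tfh factor, had 1.33, 9.77, 8.43 and 26.6 CPM in the CNS, against 38.2, 40.7 and 33.9 CPM in the dLN. With edgeR it was called lower without replicate 4 (-2.52 ± 0.59, adjusted p = 0.028) but not with 7 libraries (0.21). With all 7 libraries, DESeq2 called 4 Tfh genes lower and limma voom 8. The 2 Tfh genes that rose without replicate 4 in edgeR were Pdcd1 and Maf, which effector cells also express. Cxcr5 was called in every fit that left out 1 library, and Tox2 and Btla were lost without CNS replicate 2 or 3 or any dLN library (0.13 and 0.12 at most).

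In the naive and central memory list, edgeR called 1 of 23 tested genes lower with 7 libraries and 13 lower without CNS replicate 4, while the median log2 fold change was -0.56 and -0.59. None rose with 7 libraries (1 at an unadjusted p under 0.05, with DESeq2 and with limma voom), and with all 7 libraries DESeq2 and limma voom called 13 and 14 lower. Id3, an inhibitor of E protein factors that naive and Tfh cells keep on, had 15.1, 9.33, 13.5 and 18.6 CPM in the CNS, against 69.5, 102 and 57.8 CPM in the dLN (log2 fold change -2.44 ± 0.28 SE, edgeR adjusted p = 0.0052), and was called in every fit that left out 1 library. Igfbp4, a marker of naive and recent emigrant T cells, had 155, 191, 337 and 721 CPM in the CNS, against 1355, 983 and 1162 CPM in the dLN (-2.36 ± 0.28 without replicate 4, adjusted p = 0.0024, and -1.73 ± 0.46 with it, 0.087). It was lower in all 4 CNS libraries than in any dLN library, with replicate 4 the nearest to the dLN. Lef1 had 708 CPM in replicate 4, within the dLN range of 692 to 848 CPM, and 415 to 458 CPM in the other CNS libraries. Klf2, which maintains naive T cells and drives egress receptor genes, went against the rest of its list. It had 1059, 1044, 1026 and 436 CPM in the CNS, against 507, 529 and 447 CPM in the dLN, so that replicate 4 alone was below the dLN, and it rose without replicate 4 (1.08 ± 0.10, adjusted p = 0.001, against 0.14 with it).

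Macrophage transcripts gave the largest falls. Cd209b, a lectin of lymphoid tissue macrophages, had 0, 0, 0 and 0.151 CPM in CNS replicates 1 to 4, against 30.4, 66.2 and 76.0 CPM in the dLN, a total of 2 reads against 2454 (1645-fold lower in the CNS, exact 95% interval 455 to 13590, counting error only; edgeR adjusted p = 0.00021). Ccl8, a chemokine of tissue macrophages, had 0, 0, 0.363 and 0.757 CPM in the CNS, against 33.5, 73.4 and 99.8 CPM in the dLN (log2 fold change -7.99 ± 0.81 SE, adjusted p = 0.0032). Both were called in every fit that left out 1 library, including the one without replicate 4. Without CNS replicate 4, 38 of the 712 lower genes had no read in CNS replicates 1 to 3. Replicate 4 had at least 1 read in 27 of these and was within or above the dLN range in 9. Of the 18 tested monocyte and macrophage markers on the list, none was called with 7 libraries (1 higher and 1 lower at an unadjusted p under 0.05, 1 higher with DESeq2, 1 higher and 1 lower with limma voom), and replicate 4 was the highest of all 7 libraries in 11. The part of these markers in the calls was not tested.

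**Figure D4:**
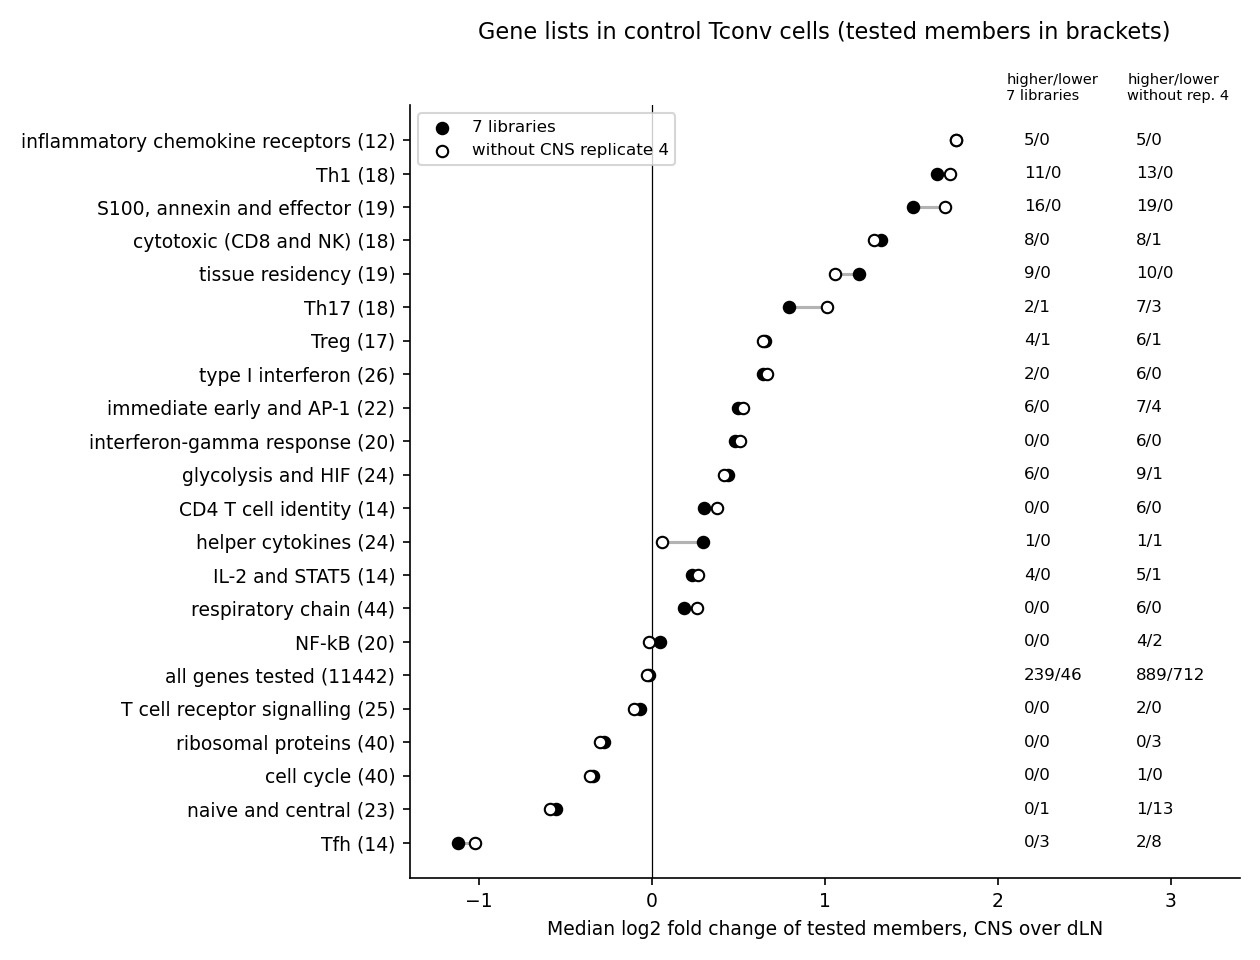
Median log2 fold change of CNS over dLN for the tested members of selected lists, with 7 libraries (filled) and without CNS replicate 4 (open), and at the right the numbers called higher and lower. Some lists not drawn changed sign without replicate 4. They include monocyte and macrophage markers (0.35 with 7 libraries, -0.46 without it), dendritic cell markers (0.15, -0.94) and TNF receptors (0.02, -0.15). Chemokine receptor, Th1 and S100 lists lie above 1.5 in both fits and the Tfh list below -1, while the median of all genes is near 0.

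Among metabolic, interferon and housekeeping genes, members of the glycolysis and type I interferon lists rose. Of 24 glycolysis genes, 6 rose and none fell with 7 libraries (1 lower at an unadjusted p under 0.05, 0 with DESeq2 and 1 with limma voom). Aldoa had 1182, 949.6, 959.7 and 985 CPM in CNS replicates 1 to 4, against 673, 584 and 655 CPM in the dLN (log2 fold change 0.68 ± 0.12 SE, edgeR adjusted p = 0.028). Slc16a3, a lactate exporter, had 21.1, 20.6, 18.0 and 37.0 CPM in the CNS, against 7.91, 6.86 and 5.56 CPM in the dLN (1.83 ± 0.33, adjusted p = 0.028). Replicate 4 was the highest of all 7 libraries in 11 of the 24. Without it, Pdk1, which limits entry of pyruvate into mitochondria, was lower in the CNS, at 20.0, 59.5 and 105 CPM in replicates 1 to 3, against 265, 383 and 391 CPM in the dLN (-2.49 ± 0.50, adjusted p = 0.016), while replicate 4 had 292 CPM. Of 26 type I interferon response genes, 2 rose with 7 libraries, namely Isg20 and Irf7, and 6 without replicate 4. These are 7.69% and 23.1% of the list, against 2.09% and 7.86% of all genes tested. Irf7, which amplifies the response, had 309, 285, 265 and 258 CPM in the CNS, against 137, 101 and 157 CPM in the dLN (1.09 ± 0.17, adjusted p = 0.014). Of 20 interferon-gamma response genes, edgeR called 0 with 7 libraries, and 6 higher without replicate 4 (30%, against 7.86% of all genes tested). With 7 libraries, 9 were higher and 0 lower at an unadjusted p under 0.05, and DESeq2 and limma voom each called 5 higher and 0 lower. No cell cycle gene of 40 and no ribosomal protein gene of 40 was called with 7 libraries. At an unadjusted p under 0.05, 1 cell cycle gene was higher and 1 lower, and 13 ribosomal protein genes were lower. DESeq2 called 1 cell cycle gene higher and 3 ribosomal protein genes lower, and limma voom 1 of each. Aldoa, Slc16a3, Isg20 and Irf7 each lost their call without at least 1 CNS and 2 dLN libraries (adjusted p up to 0.17).

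Some differences among CNS replicates 1 to 3 were absent from replicate 4. Among genes called without it, with groups that did not overlap and a mean of at least 10 CPM in 1 group, 206 rises and 295 falls had replicate 4 within the dLN range or beyond it. Over all gene names and without the overlap condition, it was 214 of 863 rises (24.8%) and 299 of 656 falls (45.6%). Of all genes tested, 42.9% had replicate 4 within the dLN range. The genes were chosen with CNS replicates 1 to 3 clear of the dLN, so these counts are a description. The 8 largest of the 206 rises ranged from 1.60 to 3.25 on the log2 scale without replicate 4. Cited2, a co-regulator of hypoxia and other responses, had 287, 203, 183 and 81.0 CPM in CNS replicates 1 to 4, against 81.9, 72.4 and 67.3 CPM in the dLN (1.60 ± 0.19 SE without replicate 4, edgeR adjusted p = 0.0021, and 0.083 with it). Ecm1, a matrix protein that activated T cells secrete, had 118, 149, 62.1 and 41.2 CPM in the CNS, against 44.4, 25.9 and 36.2 CPM in the dLN (1.63 ± 0.33, adjusted p = 0.017, and 0.12 with it). For both, replicate 4 was inside the range of the dLN libraries. The other 6 rises were Gbp11, Syngr3, Myo6, Particl, Gpr34 and Etfbkmt, of which Gbp11 belongs to a guanylate-binding protein family whose close copies could share reads. Gpr34 is also on the microglia list. The 8 largest falls ranged from -2.02 to -2.97 and were Ift80, Egr3, Rapgef4, Pdk1, Frmd6, Taf2, Ly75 and Hist1h1b. Ly75, the endocytic receptor DEC-205, had 13.2, 25.2, 23.9 and 81.4 CPM in the CNS, against 56.7, 115 and 83.0 CPM in the dLN (-2.03 ± 0.33, adjusted p = 0.0079, and 0.23 with it). Dendritic cells express Ly75 strongly, and the sum of 15 dendritic cell markers was 254, 276, 711 and 1131 CPM in CNS replicates 1 to 4, against 216, 605 and 700.3 CPM in the dLN. Their part in this result was not tested.

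The tissue difference of control Tconv cells was next set against that of control Treg cells, in 1 fit of 13 libraries whose Tconv libraries are those described above. The 2 tissue differences differed in 274 of 12473 genes (2.2%, edgeR, adjusted p under 0.05), 58 of them above 0, more positive in Tconv (0.465%), and 216 below 0 (1.73%). Without CNS Tconv replicate 4, 198 were above 0 and 440 below. Ahr, a ligand-activated factor, averaged 31.9 ± 6.43 CPM in CNS Tconv and 12.4 ± 2.40 CPM in dLN Tconv, but 58.5 ± 5.49 CPM in CNS Treg and 105 ± 12.03 CPM in dLN Treg (SD, n = 4, 3, 3 and 3). It was higher in the CNS in Tconv and lower in the CNS in Treg (interaction 2.22 ± 0.28 SE, adjusted p = 0.0019). Il2rb averaged 1166 ± 241 CPM in CNS Tconv and 378 ± 68.3 CPM in dLN Tconv, and 1554 ± 255 CPM in CNS Treg and 1371 ± 45.4 CPM in dLN Treg (interaction 1.44 ± 0.25, adjusted p = 0.012). The CNS Tconv level thus came closer to the Treg level for this chain. Il2ra, Cish and Socs2 of the same pathway also had interactions above 0 (1.72, 1.27 and 1.86). Tnfrsf1b averaged 209.5 ± 25.8 CPM in CNS Tconv and 125 ± 9.84 CPM in dLN Tconv, against 615 ± 139 CPM in CNS Treg and 806 ± 60.98 CPM in dLN Treg (interaction 1.14 ± 0.22, adjusted p = 0.021). Ahnak, Rora, Capg, Thy1, Nrp1 and Cd44 were the other named genes above 0, from 0.77 to 2.19. Treg factors and receptors such as Nrp1 and Il2ra remained far lower in CNS Tconv (151 ± 15.5 and 72.7 ± 18.0 CPM) than in CNS Treg (383 ± 27.5 and 386 ± 106 CPM).

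The genes below 0 in that test included known myeloid transcripts. Cst3, a protease inhibitor abundant in microglia, averaged 249 ± 10.6 CPM in CNS Tconv and 136 ± 21.0 CPM in dLN Tconv, and 1613 ± 151 CPM in CNS Treg and 158 ± 5.90 CPM in dLN Treg (interaction -2.49 ± 0.17 SE, edgeR adjusted p = 1.4e-05). Olfml3, a microglia gene, averaged 19.6 ± 12.9 CPM in CNS Tconv and 27.7 ± 4.23 CPM in dLN Tconv, and 148 ± 24.1 CPM in CNS Treg and 0.515 ± 0.287 CPM in dLN Treg (-8.67 ± 0.82, adjusted p = 0.00034). The summed monocyte and macrophage markers were 11142 to 14517 CPM in the CNS Treg libraries and 957 to 2282 CPM in the dLN Treg libraries, against 374 to 1477 CPM in CNS Tconv and 572 to 1118 CPM in dLN Tconv. Microglia markers summed to 2224 to 2976 CPM in CNS Treg and 175 to 494 CPM in CNS Tconv. These markers moved with the genes below 0, and their part in the result was not tested. Fos was higher in the CNS in both populations, averaging 120.1 ± 17.5 CPM in CNS Tconv and 15.6 ± 2.53 CPM in dLN Tconv, and 533 ± 216 CPM in CNS Treg and 12.6 ± 6.49 CPM in dLN Treg (-2.45 ± 0.44, adjusted p = 0.014). The CNS differences of Irf7 and Anxa1 were likewise more positive in Treg (-1.76 and -2.02).

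**Figure D5:**
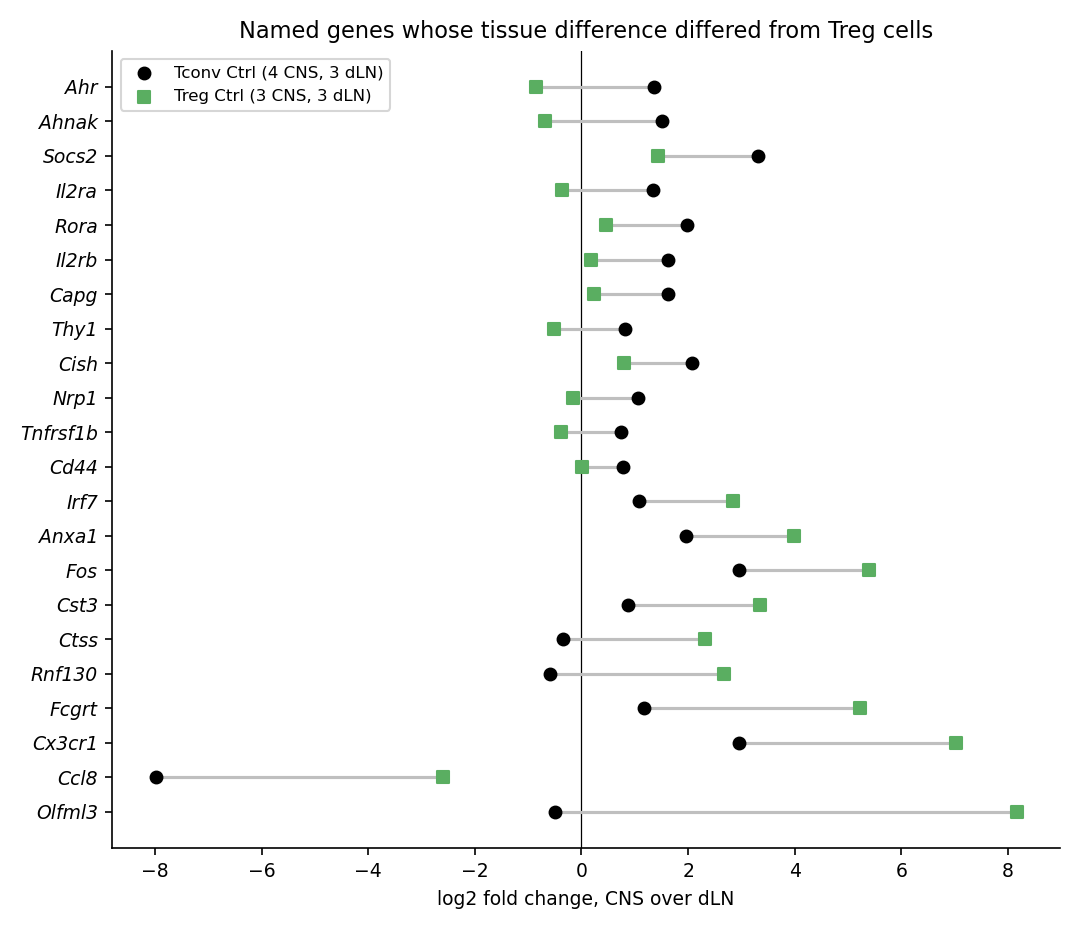
Log2 fold change of CNS over dLN in control Tconv cells (black circles, 4 CNS and 3 dLN libraries) and control Treg cells (green squares, 3 and 3) for 22 named genes whose tissue difference differed between them. Socs2, Rora and Cish lie higher in Tconv, Ahr and Ahnak went opposite ways, and Cx3cr1, Fcgrt and Olfml3 had the higher values in Treg libraries.

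The tissue difference of control Tconv cells was last set against that of Tconv cells from icKO mice, with 13 libraries that again include the same 7. Only 4 of 12400 genes differed (0.0323%, edgeR, adjusted p under 0.05), all below 0, more positive in icKO. None was above 0 (465 at an unadjusted p under 0.05, 42 with DESeq2 and 14 with limma voom). Klrc1 averaged 79.2 ± 19.2 CPM in control CNS Tconv and 17.7 ± 3.79 CPM in control dLN Tconv, against 209 ± 41.6 CPM in icKO CNS Tconv and 8.70 ± 2.46 CPM in icKO dLN Tconv (interaction -2.42 ± 0.36 SE, adjusted p = 0.033; SD, n = 4, 3, 4 and 2). Ctsw averaged 236 ± 17.7 CPM in control CNS Tconv and 52.2 ± 2.82 CPM in control dLN Tconv, against 483 ± 43.2 CPM in icKO CNS Tconv and 47.5 ± 0.917 CPM in icKO dLN Tconv (-1.16 ± 0.16, adjusted p = 0.033). Both killer-cell genes were higher in the CNS in each genotype. Lilrb4a, an inhibitory receptor, and Nabp1, a single-strand DNA-binding protein, had interactions of -2.83 ± 0.42 and -1.48 ± 0.22 (adjusted p = 0.033 each). The count was 0 when replicate 3 of the icKO dLN libraries was kept. It was also 0 without control CNS replicate 3, control dLN replicate 1, icKO CNS replicate 1, 3 or 4, or icKO dLN replicate 1 or 2. Without control CNS replicate 1, 7 genes were above 0 and 15 below, without control CNS replicate 2 it was 2 and 17, and without icKO CNS replicate 2 it was 13 and 13. Without control CNS replicate 4 or control dLN replicate 3 there were 0 above and 8 below.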

How the data were processed

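RNA of sorted CD4 T cells was made into libraries with SMART-Seq v4 and Nextera, which keep no strand, per the labels' protocols, so reads of overlapping or antisense genes cannot be told apart. Per the submitters' processing notes, FastQC, Trimmomatic, STAR 2.5.3a and RSEM 1.2.28 were used with build mm10. Each table deposited by the authors holds expected counts per gene, estimated read numbers that need not be whole. They were rounded to whole numbers and tested with edgeR 4.0.16 (R 4.3.3, data.table, version 1.17.8, jsonlite 2.0.0), with filterByExpr, TMM factors and the quasi-likelihood test, in a fit of the 7 libraries alone. P-values were adjusted by Benjamini-Hochberg over all genes tested, and a gene was called at an adjusted p under 0.05. CPM values use TMM-scaled library totals of each fit. Each interaction was a contrast of 4 group means over 13 libraries. DESeq2 1.42.0, limma 3.58.1 (voom with quality weights) and other filters, scalings and sets of libraries were alternatives. Summaries used Python 3.11.15, pandas 2.3.3, numpy 2.4.6 and matplotlib 3.10.9. The scripts were tested on simulated data.

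Genes were named by a rule. It took the 12 largest rises and 12 largest falls among calls with at least 10 CPM in 1 group and no overlap, the 8 largest of each among genes with CNS replicate 4 at the dLN level, up to 4 called members per pathway list (from the fit without CNS replicate 4 where fewer than 4 were called with 7 libraries), the top 8 by p of each interaction, and Foxp3, Tnfrsf1b, Cd4 and Cd3e. Other list members described (Tbx21, Stat4, Gzmb, Prf1, Cd8a, Cd8b1, Il17a, Il2, Tnf, Csf2, Bcl6, Pdcd1, Egr1, Egr2, Dusp2, Lef1, Crip1, Emp3, Adgre1 and Tmem119) were chosen after their values were seen. Some genes that entered the counts are not reported here. The comparison and the lists were chosen with earlier results of these data known. The labels name each replicate as a mouse. Intervals and floors cover counting error only.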

Additional observations from a re-analysis of the deposited data

Results flagged for a closer look

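Among 142 named genes, 13 had a CNS library far from the other 3 by Dixon's criterion, which flags about 1 in 20 groups by chance. Many of these genes were named because CNS replicate 4 lay at the dLN level or because they were called only without it, so which library stood out was in part fixed by that choice and is given as a description. CNS replicate 4 was the one in 11 of these, highest in 8 and lowest in 3. It stood high, in CPM, for Cd209b (0.151), Cxcr5 (24.4), Ift80 (39.9), Nfkbid (47.7), Traf3 (59.2), Slc16a3 (37.0), Bcl2l11 (129) and Gpr141 (0.227), and it stood low for Klf2 (436), S1pr4 (92.5) and Nkg7 (473). CNS replicate 1 stood high for Cish (377) and Aldoa (1182), and for the summed level of the Treg list (1634 CPM), the only one of 44 lists with such a library.

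For 23 named genes the tissue difference of control Tconv cells differed from that of control Treg cells by the interaction test in edgeR. On the log2 scale it was more positive in Tconv for Ahr (2.22), Ahnak (2.19), Socs2 (1.86), Il2ra (1.72), Rora (1.53), Il2rb (1.44), Capg (1.38), Thy1 (1.33), Cish (1.27), Nrp1 (1.22), Tnfrsf1b (1.14) and Cd44 (0.77). It was more negative in Tconv for Irf7 (-1.76), Anxa1 (-2.02), Fos (-2.45), Cst3 (-2.49), Ctss (-2.67), Rnf130 (-3.26), Fcgrt (-4.06), Cx3cr1 (-4.07), Ccl8 (-5.40), Olfml3 (-8.67) and Gpr141 (-10.13, where CNS Tconv held 3 reads in all, so that the size depends on the prior count). Against icKO Tconv cells the test flagged Klrc1 (-2.42), Ctsw (-1.16), Lilrb4a (-2.83) and Nabp1 (-1.48).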

How the results depend on the processing

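Counts of calls depended on the tool and on single libraries. In pairs of genes higher and lower in the CNS, against 239 and 46, DESeq2's Wald test gave 756 and 371, limma voom 734 and 562, all 8 groups with 26 libraries 113 and 30, the 8 groups with 25 libraries 806 and 396, and an adjusted p under 0.01 gave 49 and 5. Without CNS replicates 3 and 4 the counts were 957 and 842, and without replicates 1 and 2 (added after seeing the data) 168 and 30. Leaving out each replicate gave 29 to 889 higher and 4 to 712 lower. Counts with DESeq2 size factors, no filter or a filter of 10 CPM in 3 libraries stayed within 1.5 times.

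For Tconv against Treg, in pairs above and below 0 against 58 and 216, DESeq2 gave 222 and 518, limma voom 236 and 513, the 25-library fit 151 and 344, and leaving out the CNS Tconv libraries with a disagreeing table name (added after seeing the data) 288 and 668. Leaving out each replicate gave 13 to 198 above and 88 to 440 below. For control against icKO, against 0 and 4, DESeq2 size factors gave 1 and 10, its Wald test 42 and 93, limma voom 14 and 12, no filter 5 and 18, the 10 CPM filter 2 and 14, keeping replicate 3 of the icKO dLN libraries 0 and 0, and leaving out the libraries with a disagreeing name (also added after seeing the data) 1 and 1. Leaving out each replicate gave 0 to 13 above and 0 to 17 below.

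Foxp3 (0.041 without CNS replicate 4, and -0.60 to 0.041 over fits that leave out 1 library), Bcl2l11 (0.095) and Olfml3 (0.14, both without CNS replicates 1 and 2) changed sign, none of them called. List medians changed sign in at least 1 setting for helper cytokines, TNF receptors and ligands, NF-kB, interleukin receptors, heat shock, T cell receptor and amino acid lists and for monocyte, microglia, dendritic and stromal markers. The cause of these shifts was not tested. With 3 or 4 libraries a group, calls of low genes are limited by depth.

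The replicate numbers are shared between tissues, and the labels name each replicate as a mouse. The deviations of same-numbered libraries correlated at 0.035, -0.113 and 0.089, and those of other pairs at -0.181 to 0.153. With so few libraries, these values cannot decide whether the same mice gave both tissues. The main fits did not pair the samples. In the fits with a replicate block, control CNS Tconv replicate 4 was alone in its block, so it did not inform the tissue difference. There, 474 genes were higher and 387 lower, against 889 and 712 without replicate 4 and without the block. In the block fits, 87 and 245 genes lay above and below 0 against Treg, and 0 and 0 against icKO.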
